A study of Mus musculus with 3 samples.

Results

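Collagens and laminins, the main structural proteins of basement membranes and fibrous matrix, were followed across the cells of the mouse arcuate nucleus, which lies at the floor of the third ventricle in the hypothalamus and controls feeding. The set holds every gene whose symbol is Col, a number, a and a number, or Lama, Lamb or Lamc with a number: 55 of the 31253 genes measured, 44 collagen chains and 11 laminin chains. It was chosen by name, not by level. Of the 55, 54 had at least 20 unique molecular identifiers (UMIs, each marking 1 captured transcript molecule) in the cells kept, and the cartilage collagen gene Col10a1 had fewer. Together the set held 133912 UMIs.

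Single cells came from male C57BL/6JRj mice 5 to 6 weeks old, and tissue of 6 mice was pooled into each library. The SC library came from mice on standard chow for 15 days, the 5-day HFHS library from mice that had 10 days of chow and then 5 days of food high in fat and sugar (HFHS), and the 15-day HFHS library from mice given that food for all 15 days. The nucleus was micropunched and dissociated with collagenase/dispase and then papain, and a 10x droplet kit primed at the 3′ end of transcripts was used. With 1 library per diet there was no replicate and no test: brackets hold exact 95% intervals of the counting error, which leave out how much mice, pools or preparations vary, and a ratio between diets compares libraries. Levels are CPM, the UMIs of a gene in a class and library scaled to a total of 1000000 UMIs, given in the order SC, 5-day, 15-day, and were not divided by gene length because each molecule is counted once, at its 3′ end. Libraries kept 4825, 4041 and 5157 cells, 14023 in all, and shared 2 to 23 cell barcodes between any pair.

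A collagen molecule is a triple helix of 3 chains, and each family assembles differently. Fibrillar chains (types I, III, V and XI among them) form the cross-banded fibres of connective tissue, type IV chains form the network of basement membranes, type VI chains form beaded filaments, fibril-associated chains such as type IX and XII coat fibres, multiplexins (XV and XVIII) sit where basement membrane meets fibres, and transmembrane collagens (XIII, XVII, XXIII, XXV) are anchored in the plasma membrane and can be shed. A laminin is a trimer of 1 alpha, 1 beta and 1 gamma chain that binds cell receptors and nucleates the basement membrane. In brain the vascular basement membrane lies between endothelial cells, pericytes and the end-feet of astrocytes, fibroblasts lie along larger vessels and in the meninges, and tanycytes are the radial ependymal cells of the third ventricle floor, some of which send processes to capillaries.

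Classes were set from clusters by markers that include no collagen or laminin, and are called by the nearest cell type. Of the named classes 6 were compared here. Fibroblast-like cells numbered 11, 18 and 60, pericyte-like cells 134, 110 and 116, and endothelial-like cells 351, 344 and 291. Tanycyte-like cells numbered 682, 447 and 606, astrocyte-like cells 782, 804 and 1254, and oligodendrocyte-precursor-like cells 255, 203 and 216. The fibroblast markers summed to 22660, 19313 and 21490 CPM in fibroblast-like cells and to at most 904 CPM in pericyte-like cells; of the 10 markers, Dpep1 and Slc47a1 were at 0 in the SC fibroblast-like cells, Slc47a1 in the 5-day and Fmod in the 15-day cells. Pericyte markers summed to 39012, 38408 and 33687 CPM in pericyte-like cells and to 3137, 6094 and 1055 CPM in the few fibroblast-like cells. Of the 9 pericyte markers, Abcc9, Rgs5 and Higd1b were at 0 in the SC fibroblast-like cells, and Higd1b and Notch3 in the 5-day and 15-day cells. Tanycyte-like cells held 3133, 3124 and 3013 CPM of tanycyte markers beside 2800, 2835 and 2573 CPM of ependymal markers. Haemoglobin transcripts of red blood cells summed to 26385, 26716 and 998 CPM in endothelial-like cells and to 18, 3825 and 15.2 CPM in precursor-like cells. Where these markers move with a result below, their part in it was not tested.

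The type IV genes lie in head-to-head pairs, in which the starts of both genes face apart. In GENCODE on GRCm38 the annotated starts of Col4a1 and Col4a2 on chromosome 8 lay 21 bases apart with the genes overlapping, those of Col4a4 and Col4a3 on chromosome 1 stood 72 bases apart, and those of Col4a6 and Col4a5 on chromosome X stood 1309 bases apart. No member shared an exon on the same strand with another gene. RefSeq promoter windows on GRCm38.p6, 250 bases before to 50 after a start, were matched for 40 of the 55 members. Those of 2 of the head-to-head type IV pairs, 1 with and 1 without shared bases, and of the transmembrane genes Col23a1 and Col25a1 that tanycyte-like cells led, are printed 5′ to 3′ on each gene's own strand. Capitals mark 3 short motifs on either strand, so that the reverse complement is marked too. The CCAAT box was searched as CCAAT. The GC box was searched as GGGCGG. The TATA box was searched as TATAAA. The windows are chr8:11312777-11313076 (minus strand) for Col4a1, chr8:11312555-11312854 (plus) for Col4a2, chrX:141475169-141475468 (plus) for Col4a5, chrX:141474027-141474326 (minus) for Col4a6, chr11:51289670-51289969 (plus) for Col23a1 and chr3:130180595-130180894 (plus) for Col25a1. The Col25a1 window belongs to a RefSeq start inside the gene as GENCODE annotates it, whose own start is at base 130131501.
Col4a1: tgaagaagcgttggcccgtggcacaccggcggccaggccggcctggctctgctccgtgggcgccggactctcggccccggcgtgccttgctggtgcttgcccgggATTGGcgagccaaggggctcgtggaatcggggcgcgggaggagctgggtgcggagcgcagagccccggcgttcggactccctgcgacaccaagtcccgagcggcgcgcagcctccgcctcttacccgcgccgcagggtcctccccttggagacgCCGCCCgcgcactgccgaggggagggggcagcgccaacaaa
Col4a2: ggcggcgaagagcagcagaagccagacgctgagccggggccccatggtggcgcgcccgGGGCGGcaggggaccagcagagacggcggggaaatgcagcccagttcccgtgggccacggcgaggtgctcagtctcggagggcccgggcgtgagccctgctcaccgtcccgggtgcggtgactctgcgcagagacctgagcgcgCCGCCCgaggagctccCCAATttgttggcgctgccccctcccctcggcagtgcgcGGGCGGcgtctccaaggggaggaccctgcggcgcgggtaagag
Col4a5: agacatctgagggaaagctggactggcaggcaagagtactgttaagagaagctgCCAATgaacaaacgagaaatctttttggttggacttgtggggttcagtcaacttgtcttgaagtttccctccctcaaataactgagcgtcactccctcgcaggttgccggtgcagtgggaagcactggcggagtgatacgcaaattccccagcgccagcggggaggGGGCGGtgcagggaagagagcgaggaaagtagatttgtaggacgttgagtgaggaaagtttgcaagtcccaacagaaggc
Col4a6: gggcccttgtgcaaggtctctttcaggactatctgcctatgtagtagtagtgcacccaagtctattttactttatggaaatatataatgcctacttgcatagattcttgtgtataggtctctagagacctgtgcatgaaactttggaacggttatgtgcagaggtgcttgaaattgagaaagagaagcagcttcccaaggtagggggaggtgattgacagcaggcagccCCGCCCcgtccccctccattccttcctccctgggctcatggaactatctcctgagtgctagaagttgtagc
Col23a1: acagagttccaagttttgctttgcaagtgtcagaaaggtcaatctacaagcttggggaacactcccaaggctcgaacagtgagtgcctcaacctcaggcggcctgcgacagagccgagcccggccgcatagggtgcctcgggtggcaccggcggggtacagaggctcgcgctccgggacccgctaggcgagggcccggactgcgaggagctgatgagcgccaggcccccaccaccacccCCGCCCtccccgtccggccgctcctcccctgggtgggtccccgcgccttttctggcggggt
Col25a1: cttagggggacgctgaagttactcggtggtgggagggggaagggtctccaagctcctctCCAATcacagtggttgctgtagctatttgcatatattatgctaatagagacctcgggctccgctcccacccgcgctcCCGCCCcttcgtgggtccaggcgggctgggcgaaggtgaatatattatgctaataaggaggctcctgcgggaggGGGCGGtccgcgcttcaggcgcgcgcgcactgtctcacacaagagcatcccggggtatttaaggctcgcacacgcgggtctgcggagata
The Col4a1 and Col4a2 windows share the 78 bases at chr8:11312777-11312854, which hold 1 GC box; on the strand of Col4a2 they read:
shared: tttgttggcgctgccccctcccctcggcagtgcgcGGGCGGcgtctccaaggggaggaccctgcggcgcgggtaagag
GC content was 74.0% in the Col4a1 window and 73.7% in that of Col4a2, against a median of 52.7% over all 32817 promoter windows, and they held 37 and 33 CpG dinucleotides against a median of 7. The Col4a5 and Col4a6 windows had 52.7% and 48.3% GC and share no bases. A GC box stood in 59.1% of the 44 member windows and in 35.6% of all windows, a CCAAT box in 31.8% and 37.4%, and a TATA box in 11.4% and 13.6%; these are letter matches, not sites of binding.

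Fibroblast-like cells held by far the most matrix message. Collagen genes summed to 14061, 14786 and 9219 CPM there, laminin genes to 3149, 2845 and 1361 CPM. Pericyte-like cells followed with 3034, 2898 and 2897 CPM of collagens and 1855, 1820 and 1772 CPM of laminins. Endothelial-like and tanycyte-like cells had similar collagen sums, 1218, 1116 and 1263 CPM against 1498, 1523 and 1690 CPM, but of different genes: type IV chains made 1146, 1026 and 1191 CPM of the endothelial sum, and transmembrane chains 1149, 1189 and 1341 CPM of the tanycyte sum. Astrocyte-like cells (590, 456 and 515 CPM) and precursor-like cells (501, 504 and 492 CPM) had the lowest collagen sums of the 6 classes.

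A gene was counted as led by a class when its level there was highest of the 6 classes in all 3 libraries and its mean was at least 2 times that of the next class, among genes with a mean of at least 30 CPM and 20 UMIs in the class where they were highest. Of the 55 members 37 reached that level and 27 of these were led by a class, against 28.3% of the 9153 genes that reached it. Fibroblast-like cells led 18 (2.5% of all genes), pericyte-like cells 3 (3.47%), endothelial-like cells 1 (5.99%), tanycyte-like cells 2 (4.23%), astrocyte-like cells 1 (5.32%) and precursor-like cells 2 (6.75%). The fibroblast count thus stood far over the share of all genes, while the endothelial, tanycyte, astrocyte and precursor counts were near or under it. The clusters were formed from the same cells, with no member among the genes used to form them, and the counts are descriptions. When each cell was instead assigned by the marker score alone, which no member enters, 26 of the 27 kept their class; Col8a1 did not.

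**Figure D1:**
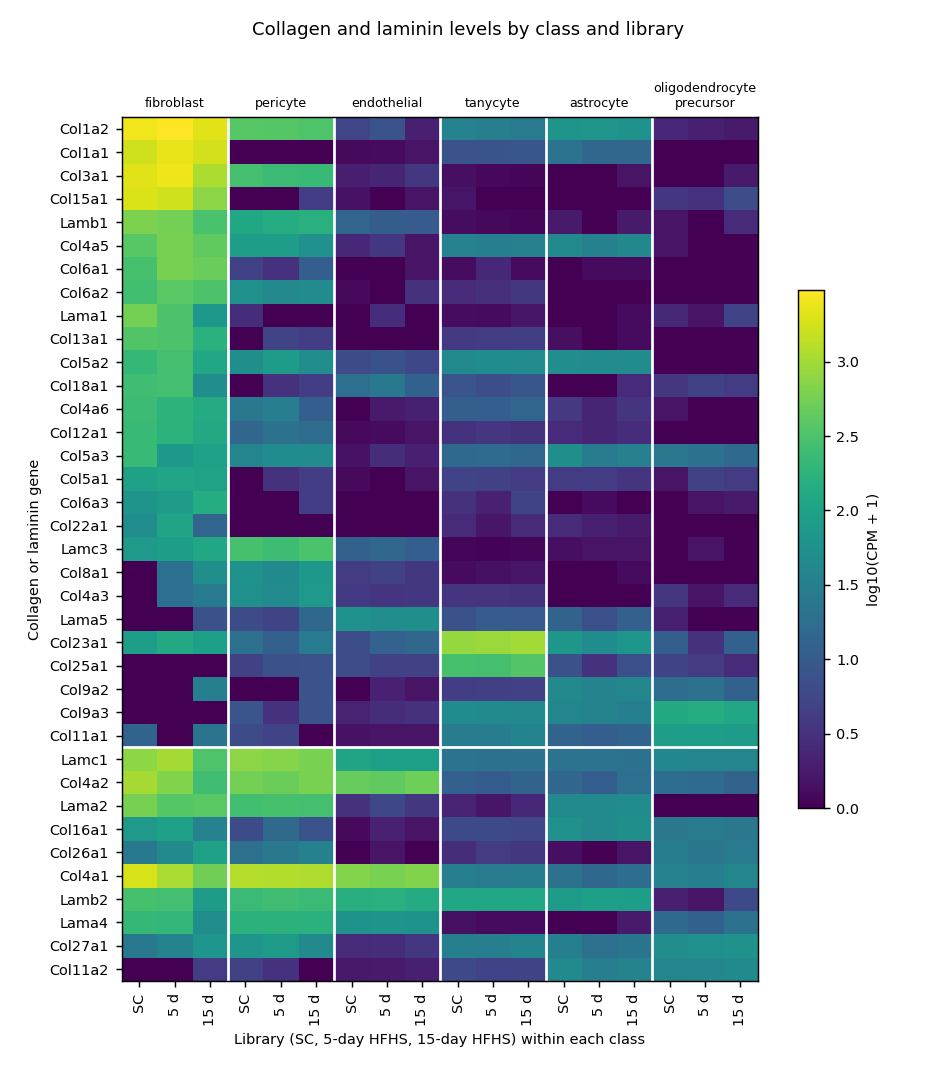
Level of the 37 members that reached 30 CPM, as log10(CPM + 1) by colour, in the 6 classes and 3 libraries (columns); rows above the white line are the 27 genes led by a class. The fibroblast columns are bright for 18 rows, and the Col23a1 and Col25a1 rows are bright in the tanycyte columns.

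The chains of fibrous collagen were concentrated in fibroblast-like cells. Col1a2, a chain of type I collagen, stood at 2534 [2200.0 to 2905], 3029 [2718 to 3367] and 2097 [1942 to 2262] CPM there, and its partner chain Col1a1 at 1710.0 [1438 to 2019], 2343 [2069 to 2642] and 1757 [1615 to 1908] CPM. Col3a1, the type III chain of elastic tissues and vessel walls, stood at 2141, 2448 and 1120.4 CPM. The minor fibril chains of type V, which set fibre diameter, were lower but also led by this class: Col5a1 had 98.4, 114 and 99.9 CPM, Col5a2 209, 282 and 119 CPM and Col5a3 221, 70.5 and 96.7 CPM. Single cells weigh in these sums: 1 cell held 33.1% of the Col1a1 UMIs in the SC library, 21.4% in the 5-day and 6.75% in the 15-day library.

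Pericyte-like cells had one chain of type I collagen without the other. Col1a2 had 374, 361 and 334 CPM there (473 UMIs in 61.9% of 360 cells) and Col3a1 282, 232 and 230.3 CPM, while Col1a1 had no UMI in any of the 360 cells, which allows a share of cells with a UMI of up to 0.833% and a level of up to 2.28 CPM over the 3 libraries. Against that limit of 3 counts, the pooled Col1a1 level of 1879 CPM in fibroblast-like cells was at least 822-fold higher, and Col1a2 had at least 158-fold more UMIs than Col1a1 in pericyte-like cells. In fibroblast-like cells both chains were found together in 92.1% of cells, at 0.792 [0.727 to 0.863] Col1a1 UMIs per Col1a2 UMI. Astrocyte-like and tanycyte-like cells also had more Col1a2 than Col1a1, at 0.249 [0.207 to 0.297] and 0.225 [0.195 to 0.259] Col1a1 UMIs per Col1a2 UMI; their Col1a2 levels were 61.8, 65.3 and 58.2 CPM and 34.2, 30.3 and 27.2 CPM. Microglia-like cells, which should lack the gene, had a Col1a2 UMI in 0.696%, 0.794% and 0.955% of cells at a median depth of 5386, 4968 and 4793 UMIs, against 16.4% of astrocyte-like cells at medians of 2845, 3824 and 2686 UMIs.

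The other fibrillar chains did not follow the fibroblast. Col11a1, a type XI chain best known from cartilage, was led by precursor-like cells at 84.98 [72.5 to 98.98], 89.4 [76.5 to 104] and 83.3 [68.03 to 101] CPM, with 28.1, 28.7 and 35.7 CPM in tanycyte-like cells; neuron-like cells, outside the 6 classes, had 56.95, 42.8 and 35.4 CPM, which ends the lead when they are counted. Its partner chain Col11a2 had 43.8, 29.5 and 34.7 CPM in astrocyte-like and 37.6, 40.5 and 44.03 CPM in precursor-like cells, and no class led it. Col27a1 was spread over pericyte-like (64.4, 78.7 and 43.4 CPM), fibroblast-like (24.6, 35.2 and 65.5 CPM) and precursor-like cells (50.99, 55.7 and 58.4 CPM) and was nearly absent from endothelial-like cells (1.67, 1.85 and 2.62 CPM).

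Type IV collagen, the basement membrane network, was shared by the 3 vascular classes. Col4a1 stood at 1257 [1164 to 1355], 1193 [1096 to 1296] and 1171 [1052 to 1301] CPM in pericyte-like cells, 677 [652 to 702], 595 [571 to 620.3] and 668 [632 to 706] CPM in endothelial-like cells and 1845, 1101 and 534 CPM in fibroblast-like cells, where the libraries differed most. Col4a2, which joins it in the common type IV trimer, had 572, 502 and 604 CPM in pericyte-like cells, 464, 425 and 518 CPM in endothelial-like cells and 1021, 669 and 262 CPM in fibroblast-like cells. No class led either gene, and Col4a1 stood at 34.5, 30.5 and 38.4 CPM in precursor-like, 29.7, 27.1 and 28.1 CPM in tanycyte-like and 18.8, 13.4 and 16.8 CPM in astrocyte-like cells. Both genes had a UMI in 80.1% of endothelial-like, 68.9% of pericyte-like and 57.3% of fibroblast-like cells. The ratio of their UMIs was not constant: Col4a1 had 1.401 [1.35 to 1.46] UMIs per Col4a2 UMI in endothelial-like cells, 1.84 [1.57 to 2.15] in fibroblast-like cells, 2.19 [2.01 to 2.39] in pericyte-like cells and 2.72 [2.41 to 3.08] in tanycyte-like cells. Across the 18 class and library values Pearson's r of log2(CPM + 1) was 0.987 for this pair; these values share libraries and classes, and r is a description.

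The other type IV chains parted by class. Col4a5, mutated in X-linked Alport syndrome, was led by fibroblast-like cells at 381, 581 and 428 CPM, followed by pericyte-like (86.5, 85.1 and 56.7 CPM), astrocyte-like (45.7, 33.2 and 41.6 CPM) and tanycyte-like cells (33.5, 30.6 and 31.4 CPM). Its head-to-head neighbour Col4a6 was led by the same class at 246, 176 and 137 CPM. Col4a5 had 2.79 [2.16 to 3.62] UMIs per Col4a6 UMI in fibroblast-like cells and 2.98 [2.65 to 3.35] in tanycyte-like cells, but 19.1 [12.3 to 31.2] in astrocyte-like cells, where Col4a6 stood at 2.74, 1.32 and 2.37 CPM. Col4a3, which joins Col4a4 and Col4a5 in the trimer of the kidney filter, was led by pericyte-like cells at 55.2 [37.2 to 78.8], 46.8 [29.3 to 70.8] and 73.4 [46.01 to 111] CPM. Col4a4 had 22.1, 34.02 and 16.7 CPM there and 0, 8.81 and 68.7 CPM in fibroblast-like cells, under the level needed for a call. Pearson's r over the same 18 values was 0.858 for Col4a3 with Col4a4 and 0.910 for Col4a5 with Col4a6, the other head-to-head pairs. For partner chains that are not head to head it was 0.730 for Col1a1 with Col1a2, 0.917 for Col6a1 with Col6a2 and 0.972 for Lamb1 with Lamc1.

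**Figure D2:**
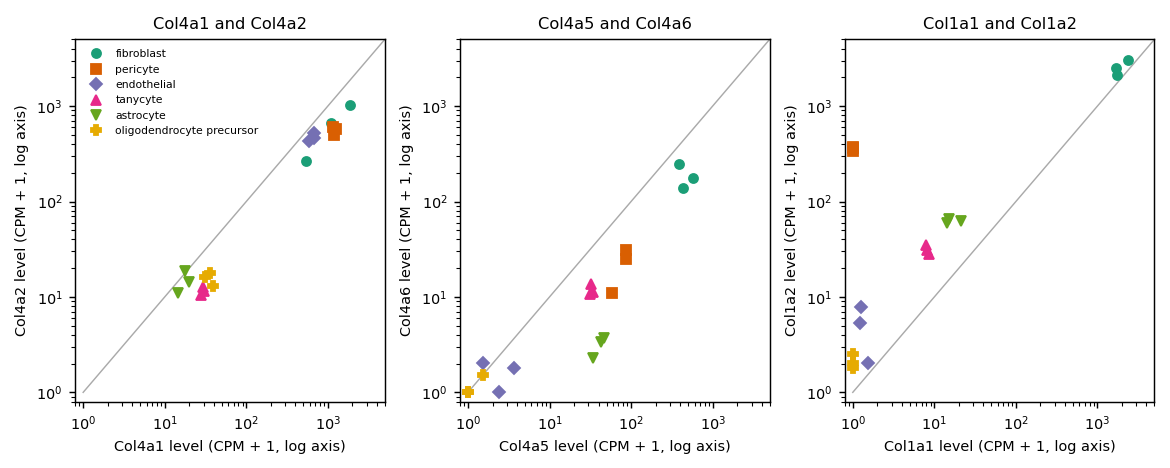
Levels of partner chains (CPM + 1, log axes) in the 6 classes, 1 point per library and class, with the line of equal levels. Col4a1 and Col4a2 rise together across the classes, with Col4a1 the higher in most points, while the 3 pericyte points of the Col1a1 panel stand at 0 CPM of Col1a1 and 334 to 374 CPM of Col1a2.

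Among the 6 classes, all 3 chains of the common type VI trimer were led by fibroblast-like cells, with 295, 581 and 481 CPM of Col6a1, 271, 387 and 318 CPM of Col6a2 and 61.5, 79.3 and 140.4 CPM of Col6a3. Here too pericyte-like cells had 1 chain and little of the others: Col6a2 stood at 55.2, 42.5 and 46.7 CPM, Col6a1 at 3.68, 2.13 and 10.01 CPM and Col6a3 at 0, 0 and 3.34 CPM. The multiplexin Col15a1 was almost confined to fibroblast-like cells among the 6 classes, at 1919 [1629.8 to 2245], 1673 [1444 to 1929] and 758 [666 to 860.0] CPM against at most 5.60 CPM in any library of the 5 others. Col18a1, whose C-terminal fragment is endostatin, was led by the same cells at 258, 273 and 49.9 CPM; with smooth-muscle-like cells added to the comparison (32.7, 20.3 and 74.5 CPM) it was not led, since these were higher in the 15-day library. Fibroblast-like cells also led Col12a1, which coats fibres, at 221, 176 and 125 CPM, and Col22a1, a collagen of tissue junctions, at 49.2, 106 and 12.5 CPM on 20 UMIs in all; the Col22a1 call was lost without the cell that held most of its UMIs. The transmembrane Col13a1, known from the neuromuscular junction, stood at 344, 317 and 169 CPM in fibroblast-like cells and at most 4.25 CPM in any library of the 5 others.

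Type IX collagen, a cartilage fibril coat, belonged to the glial classes. Col9a3 was led by precursor-like cells at 129 [113 to 146], 141 [125 to 159] and 118 [100.2 to 139] CPM, with 47.5, 44.5 and 42.3 CPM in tanycyte-like and 39.1, 34.8 and 30.8 CPM in astrocyte-like cells. Col9a2 was instead led by astrocyte-like cells at 42.2 [34.6 to 50.97], 35.6 [29.8 to 42.1] and 39.2 [33.2 to 46.05] CPM, against 17.00, 18.9 and 11.2 CPM in precursor-like cells; neuron-like cells had 24.6, 21.7 and 16.3 CPM, which ends this lead too. Col9a1 was low, at 18.03, 18.4 and 20.01 CPM in precursor-like and 6.64, 4.22 and 1.32 CPM in astrocyte-like cells. Of the 3 chains of this trimer, Col9a3 was thus by far the highest in precursor-like cells in each library. In astrocyte-like cells Col9a2 and Col9a3 were close to each other and Col9a1 was the lowest. Another fibril-associated chain, Col16a1, had 55.5, 45.8 and 52.4 CPM in astrocyte-like and 73.8, 96.9 and 34.3 CPM in fibroblast-like cells and was not led.

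Tanycyte-like cells were set apart by transmembrane collagens. Col23a1 stood at 857 [843 to 872], 899 [882 to 917] and 988 [967 to 1010.3] CPM there, 9.15 times the next of the 6 classes by mean, with 86.1, 123 and 90.5 CPM in fibroblast-like, 69.2, 48.5 and 66.1 CPM in astrocyte-like and 5.73, 11.6 and 13.1 CPM in endothelial-like cells. Col25a1, first described as a component of amyloid plaques, stood at 289 [281 to 298], 287 [277 to 297] and 348 [336 to 362] CPM, 55.2 times the next of the 6 classes by mean. Outside the 6, neuron-like cells had 82.5, 52.2 and 44.2 CPM of Col25a1. In cells thinned to 1000 UMIs (667, 440 and 574 tanycyte-like and 551, 485 and 617 microglia-like cells were deep enough), 51.4%, 52.5% and 56.1% of tanycyte-like cells had a Col23a1 UMI, against 1.09%, 0.825% and 2.27% of microglia-like cells; without thinning the shares were 91.6%, 92.8% and 89.3% against 5.39%, 3.97% and 7.17%. For Col25a1 the thinned shares were 22.2%, 17.5% and 24.2% against 0.363%, 0.206% and 0.162%.

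The 3 tanycyte-like clusters differed in which collagen they held. Cluster 12 (62, 33 and 62 cells), led by Scn7a and Dio2, had 1356, 1332 and 1444 CPM of Col25a1. Cluster 10 (316, 234 and 316 cells), led by Crym, Frzb and Rax, had 334, 303 and 366 CPM, and cluster 9 (304, 180 and 228 cells), led by Rspo3 and Tgfb2, only 13.1, 16.1 and 14.00 CPM. Col23a1 varied less, at 1109, 1069 and 1080.1 CPM in cluster 12, 1016, 1056 and 1130.1 CPM in cluster 10 and 594, 646 and 656 CPM in cluster 9. The type I chains went to opposite ends. Col1a1 was highest in cluster 12 (35.2, 47.3 and 58.1 CPM) and lowest in clusters 10 (5.08, 3.28 and 3.71 CPM) and 9 (3.41, 2.57 and 2.12 CPM), whereas Col1a2 was highest in cluster 9 (72.5, 64.5 and 75.9 CPM) and lower in clusters 10 (8.83, 7.42 and 6.64 CPM) and 12 (12.8, 16.7 and 12.6 CPM). Cluster 12 also had the most Col27a1 (131, 115 and 108 CPM, against 30.5, 28.6 and 35.2 CPM in cluster 10 and 12.00, 11.2 and 17.8 CPM in cluster 9) and the most Col11a1 (64.02, 76.8 and 62.8 CPM). Cluster 9 had the most Lamb2 (163, 166 and 190.0 CPM) and Col5a2 (69.4, 59.1 and 69.98 CPM). Each of these orders held in all 3 libraries, except that clusters 10 and 12 changed places for Col23a1 in the 15-day library. These clusters were formed from other genes of the same cells, with no member among them, and their differences are descriptions.

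**Figure D3:**
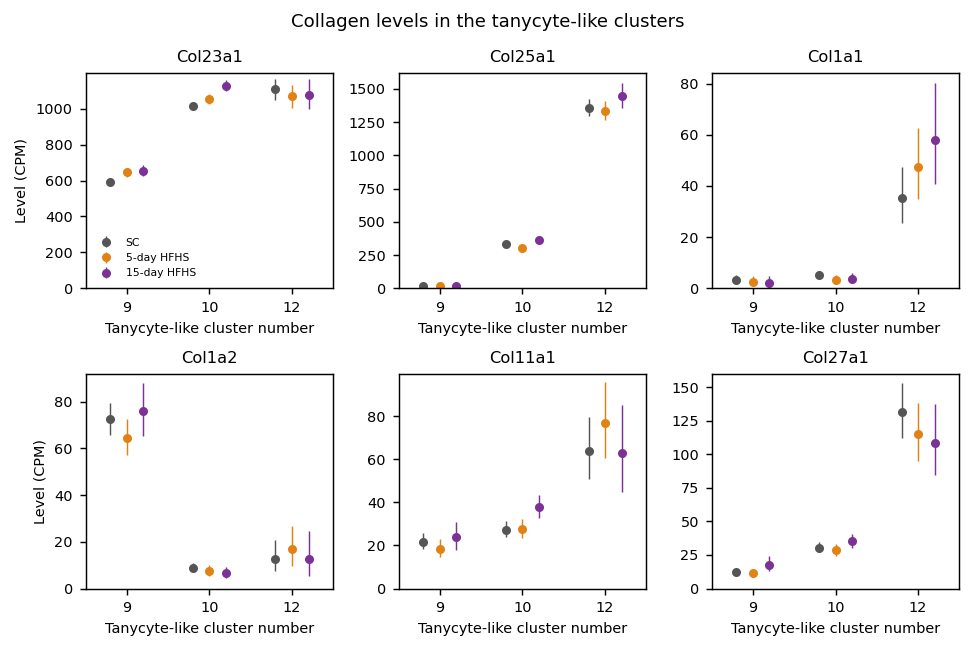
Level (CPM, linear axes from 0) of 6 collagens in tanycyte-like clusters 9, 10 and 12, 1 point per library with its exact 95% counting interval. Col25a1 climbs from cluster 9 to cluster 12 in every library, and Col1a1 and Col1a2 are highest in different clusters.

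Laminin chains were split between vascular classes by subunit. Among alpha chains, which carry the receptor-binding end, Lama1 was led by fibroblast-like cells at 566, 317 and 71.8 CPM and at most at 4.00 CPM in any library of the 5 others. Lama2, the chain lost in a congenital muscular dystrophy, was high in fibroblast-like (578, 361 and 390.1 CPM) and pericyte-like cells (267, 296 and 287 CPM), with 45.7, 44.01 and 46.9 CPM in astrocyte-like cells. Lama4, a vascular chain, stood at 169, 170.1 and 167 CPM in pericyte-like cells, 60.6, 61.8 and 58.2 CPM in endothelial-like cells and 209, 203 and 49.9 CPM in fibroblast-like cells. Lama5, the other endothelial alpha chain, was the single member led by endothelial-like cells among the 6 classes, at 60.6 [53.4 to 68.6], 49.4 [42.6 to 57.02] and 53.5 [43.6 to 64.9] CPM, and had 5.52, 4.25 and 13.3 CPM in pericyte-like cells. Smooth-muscle-like cells, outside the 6 classes, had more Lama5 (levels below), which ends the lead when they are counted. Lama4 and Lama5 had similar levels in endothelial-like cells, at 1.10 Lama4 UMIs per Lama5 UMI, and both had a UMI in 13.9% of those cells.

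The beta and gamma chains followed a different order. Lamb1 was led by fibroblast-like cells (627, 572 and 299.6 CPM), with 121, 140.3 and 164 CPM in pericyte-like and 12.6, 9.51 and 8.91 CPM in endothelial-like cells. Lamb2 was the broadest laminin of the set, at 237, 255 and 234 CPM in pericyte-like, 152, 161 and 139 CPM in endothelial-like, 116, 118 and 121 CPM in tanycyte-like and 78.2, 92.2 and 84.5 CPM in astrocyte-like cells, and almost absent from precursor-like cells (1.03, 0.526 and 4.80 CPM). Lamc1, the gamma chain of most laminins, stood at 787, 1030.4 and 334 CPM in fibroblast-like and 756, 704 and 594 CPM in pericyte-like cells and at 41.7, 37.3 and 36.8 CPM in precursor-like cells. Lamc3 was led by pericyte-like cells at 296 [252 to 346], 251 [208 to 300.5] and 314 [254 to 384] CPM, against 73.8, 88.1 and 122 CPM in fibroblast-like and 10.98, 13.2 and 9.96 CPM in endothelial-like cells; the lead was lost among barcodes with at least 1000 genes. Tanycyte-like and astrocyte-like cells had Lamb2 with little Lamb1 (at most 0.790 CPM), and Lamc1 of 20.1, 19.7 and 19.6 CPM and 20.3, 20.03 and 19.2 CPM. Precursor-like cells had Lamc1 with little of either beta chain.

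**Figure D4:**
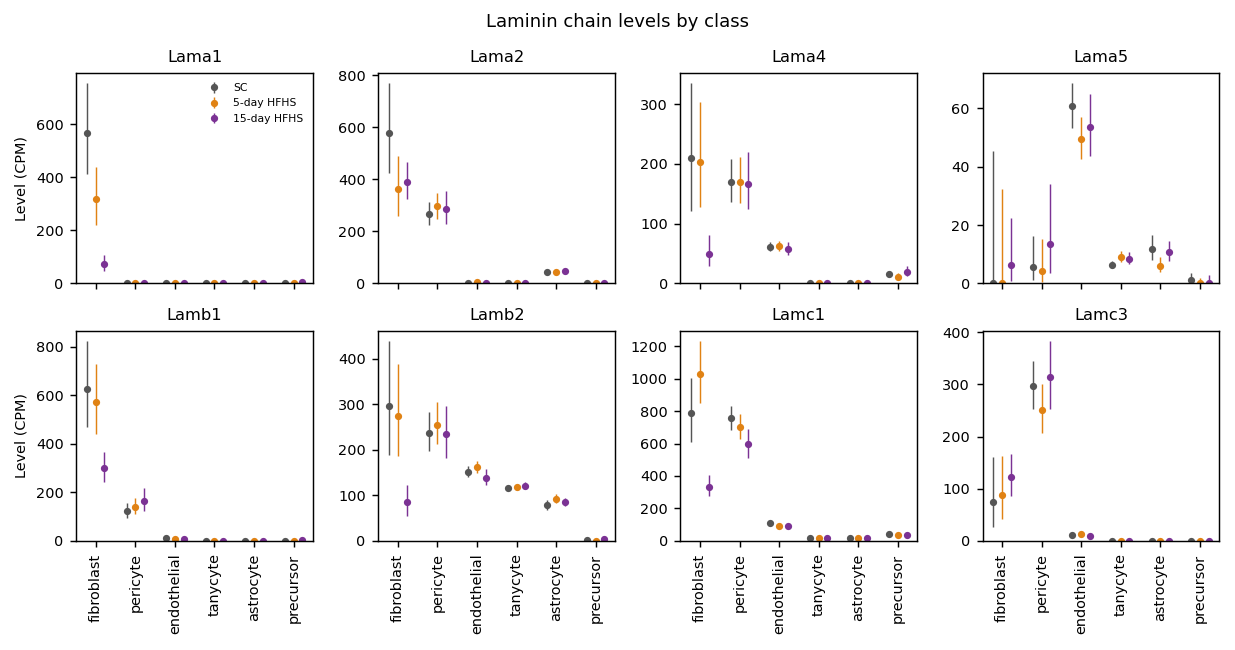
Level (CPM, linear axes from 0 that differ by panel) of 8 laminin chains in the 6 classes, 1 point per library with its exact 95% counting interval. Lama5 is highest in endothelial-like cells and Lamc3 in pericyte-like cells in all 3 libraries, and the 15-day fibroblast points lie under the SC points for each chain except Lama5 and Lamc3.

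The endothelial-like clusters also differed. Cluster 11 (57, 74 and 38 cells), led by Gkn3, Sema3g and Bmx, genes known from arterial endothelium, had 99.7, 95.4 and 70.4 CPM of Col18a1 against 1.71, 2.76 and 0.616 CPM in cluster 3 (294, 270 and 253 cells). Col14a1, a fibril-associated chain, stood at 58.04, 53.9 and 42.2 CPM against 10.5, 6.91 and 11.7 CPM, Lama5 at 104, 71.8 and 95.03 CPM against 52.3, 42.5 and 46.2 CPM, and Lamb2 at 225, 238 and 176 CPM against 138, 138 and 132 CPM. Lama4 went the other way, at 34.2, 49.4 and 31.7 CPM against 65.7, 65.6 and 62.8 CPM. Col4a1 was nearly level, at 771, 672 and 718 CPM against 659, 571 and 659 CPM.

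Pericyte-like cells led 1 further gene, Col8a1, a short-chain collagen of vessel walls, at 60.7, 44.7 and 70.1 CPM, with 0, 17.6 and 53.1 CPM in fibroblast-like cells. Of the 37 members at the level needed, the 10 not led were Col4a1, Col4a2, Col11a2, Col16a1, Col26a1, Col27a1, Lama2, Lama4, Lamb2 and Lamc1; Col26a1 had 24.6, 44.03 and 96.7 CPM in fibroblast-like and 29.4, 22.6 and 27.2 CPM in precursor-like cells. The other 18 members stayed under 30 CPM in all 6 classes by mean. Of these, Col4a4, Col9a1, Col14a1 and Col8a2 reached 10 CPM by mean in at least 1 class, Col8a2 with 12.3, 8.81 and 18.7 CPM in fibroblast-like cells. Lama3 stood at 6.44, 9.78 and 7.86 CPM and Col2a1, the main cartilage collagen, at 6.25, 5.53 and 5.79 CPM in the class where each was highest, endothelial-like and astrocyte-like. Col7a1, Col28a1, Col24a1, Col6a5, Col20a1, Col6a6, Lamb3, Col19a1, Col17a1, Col10a1 and Col6a4 were below 10 CPM by mean in each of the 6 classes.

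Genes whose products modify, process, bind or degrade collagens and laminins were read the same way, from 5 lists. Over all genes 28.3% were led by a class and 2.5% by fibroblast-like cells. Unlike the members, these genes were not kept out of the clustering, and Pcolce was among the leading genes of the fibroblast-like cluster. Their counts are therefore not independent of how the classes were formed. Of 6 processing and cross-linking genes at the level needed, 5 were led by fibroblast-like cells: Pcolce, which enhances removal of the procollagen end, at 1612, 1568 and 743 CPM, the lysyl oxidase genes Loxl1 (49.2, 61.6 and 437 CPM), Loxl2 (123, 106 and 31.2 CPM) and Lox, and Adamts2, which cuts the other end, at 49.2, 106 and 90.5 CPM. Bmp1, the C-proteinase itself, was led by astrocyte-like cells at 106, 75.6 and 108 CPM. Of 14 basement membrane and matrix partners 7 were led by fibroblast-like cells, among them Bgn (1636, 1549.9 and 1276 CPM), Fbln2 (1083, 660.5 and 321 CPM), the perlecan gene Hspg2 (283, 335 and 328 CPM) and Fbn1 (135, 194 and 147 CPM), while the fibronectin gene Fn1 was led by endothelial-like cells (872, 815 and 765 CPM). Of 17 genes for modification and export in the endoplasmic reticulum 2 were led by a class, P4hb (418, 326 and 262 CPM) and P3h3 (135, 185 and 215 CPM), both by fibroblast-like cells. Of 8 receptors 2 were led, close to the share of all genes. Itga1, the alpha chain of a collagen and laminin integrin, was led by pericyte-like cells (1347, 1209.9 and 1108 CPM) and Itga6, the alpha chain of laminin integrins, by endothelial-like cells (466, 404 and 436 CPM). Of 8 genes for degradation and its inhibitors, Timp3 (1895, 1664 and 2918 CPM), Timp2 (566, 608 and 768 CPM), Mmp2 (221, 167 and 437 CPM) and Ctsk (344, 211 and 140.4 CPM) were led by fibroblast-like cells and Mmp15 by precursor-like cells (248, 254 and 221 CPM).

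Diet was compared in 5 of the 6 classes, since the fibroblast-like cells did not reach 100 cells per library. To be counted, a gene needed 100 UMIs over the compared libraries, a level of 30 CPM in one of them, a 1.5-fold difference either way, and a counting interval lying wholly beyond a 25% difference; this is called the size rule. Of 42 pairs of member and class measured for 5-day HFHS and 43 for 15-day HFHS, 1 passed in each, Col5a3 in astrocyte-like cells, lower in both. The shares of all genes past the rule, in either direction, were 0.158% and 2.08% (5-day, 15-day) in pericyte-like cells, 0.515% and 2.26% in endothelial-like cells, 0.111% and 1.27% in tanycyte-like cells, 1.48% and 0.833% in astrocyte-like cells and 0.167% and 1.48% in precursor-like cells. With 6 to 12 members per class those shares give less than 1 gene, so a count of 0 in a class says nothing particular about the members.

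Vascular basement membrane genes differed little between libraries. In endothelial-like cells the log2 ratio of Col4a1 was -0.19 [-0.27 to -0.11] for the 5-day and -0.02 [-0.12 to 0.08] for the 15-day library over SC, and that of Col4a2 -0.12 [-0.22 to -0.03] and 0.16 [0.05 to 0.27]. The 6 endothelial members measured ranged from -0.30 (Lama5) to 0.09 (Lamb2) at 5 days and from -0.27 (Lamc1) to 0.16 (Col4a2) at 15 days. The intervals of 2 of these 6 held 0 at 5 days and of 4 at 15 days. At 5 days 4 of 7 endothelial laminins with at least 50 UMIs in the 2 libraries together were above SC and 3 below. Their median log2 ratio was 0.03, against -0.001 for all genes. At 15 days all 6 endothelial laminins at that UMI minimum were below SC, at a median log2 ratio of -0.16. Over all genes the 15-day median was -0.02, with 4701 of 8842 below SC. Haemoglobin transcripts stood at 26385, 26716 and 998 CPM in these cells, and their part in the ratios was not tested. The 10 pericyte members ranged from -0.28 (Col3a1) to 0.21 (Lamb1) at 5 days and from -0.35 (Lamc1) to 0.43 (Lamb1) at 15 days, and the intervals of 9 of the 10 at 15 days held 0.

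In tanycyte-like cells Col23a1 and Col25a1 were slightly higher in the 15-day library, at log2 ratios of 0.21 [0.17 to 0.25] and 0.27 [0.20 to 0.34], and near SC in the 5-day library (0.07 [0.03 to 0.11] and -0.01 [-0.08 to 0.05]). Cluster 10, which is rich in Col23a1, gave 52.7% of the tanycyte-like UMIs in SC and 63.1% in the 15-day library. Within cluster 10 Col23a1 stood at 1016, 1056 and 1130.1 CPM and Col25a1 at 334, 303 and 366 CPM, both highest at 15 days. In cluster 12, by the levels given above, Col25a1 was highest at 15 days but Col23a1 was highest in SC. In cluster 9 Col23a1 was highest at 15 days and Col25a1 at 5 days. The part of the cluster mix in the Col23a1 and Col25a1 ratios was not tested. Col1a2 was lowest in the 15-day library (-0.33 [-0.56 to -0.10]). Within cluster 9, its main site, Col1a2 stood at 72.5, 64.5 and 75.9 CPM. That cluster gave 39.3% of the tanycyte-like UMIs in SC and 29.1% in the 15-day library. Its part in the Col1a2 ratio was not tested. In precursor-like cells the 6 members measured stayed between -0.18 and 0.14 at 5 days and between -0.18 and 0.23 at 15 days.

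Astrocyte-like cells had less Col5a3, a type V chain, in both HFHS libraries than in the SC library. It stood at 52.4 [43.9 to 62.03], 25.6 [20.7 to 31.2] and 32.1 [26.7 to 38.3] CPM, on 134, 97 and 122 UMIs, which is a log2 ratio of -1.03 [-1.43 to -0.65] at 5 days and -0.71 [-1.07 to -0.34] at 15 days. The SC interval does not overlap that of either HFHS library. Among all genes in these cells 0.857% were past the rule as lower at 5 days and 0.217% at 15 days. Microglia-like cells had 0.550, 0 and 0.278 CPM. Of the astrocyte-like cells 748, 773 and 1201 had enough UMIs to be thinned to 1000. Among these a Col5a3 UMI was found in 5.88% [4.31% to 7.82%], 3.36% [2.21% to 4.89%] and 4.16% [3.11% to 5.45%], against 14.6%, 10.4% and 8.69% of all cells unthinned. In thinned cells Col5a3 no longer passed the rule in either library. The rule also sets a UMI minimum, which the few Col5a3 UMIs left by thinning may not reach. This result therefore cannot tell a lost difference from too few UMIs. In cluster 0 (469, 317 and 748 cells) Col5a3 stood at 52.1, 35.04 and 44.5 CPM and in cluster 1 (289, 424 and 468 cells) at 53.8, 23.4 and 21.4 CPM.

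Most other collagens had ratios below SC in the 5-day astrocyte-like cells, though only Col5a3 passed the rule. Of 14 collagens with at least 50 UMIs in the 2 libraries together, 13 were below SC at 5 days with a median log2 ratio of -0.44, against -0.05 for all genes, of which 5636 of 10048 were below SC, and 12 at 15 days with a median of -0.12 against 0.01. Examples at 5 days were Col27a1 (-0.74 [-1.23 to -0.26]), Col11a2 (-0.57 [-0.96 to -0.18]), Col23a1 (-0.51 [-0.82 to -0.21]) and Col4a5 (-0.46 [-0.84 to -0.09]), of which none passed the rule, and Col1a2 was the exception (0.08 [-0.21 to 0.38]). The laminin Lamb2 was not lower (0.24 [-0.02 to 0.50] and 0.11 [-0.15 to 0.37]). Cluster 0 gave 45.1% of the astrocyte-like UMIs in SC, 23.3% in the 5-day and 46.1% in the 15-day library, and median depth was 2845, 3824 and 2686 UMIs per cell. With the clusters weighted alike in both libraries the 5-day median was -0.35, with 12 of 14 below SC. Within cluster 1 the median was -0.60 at 5 days and -0.40 at 15 days (11 and 12 of 14 below SC), and within cluster 0 it was 0.0023 and -0.011 (7 and 8 of 14 below SC). In cells thinned to 1000 UMIs, where 9 collagens kept 50 UMIs, the 5-day median was -0.095 with 7 of 9 below SC. Whether the 2 clusters differ in this was not tested.

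**Figure D5:**
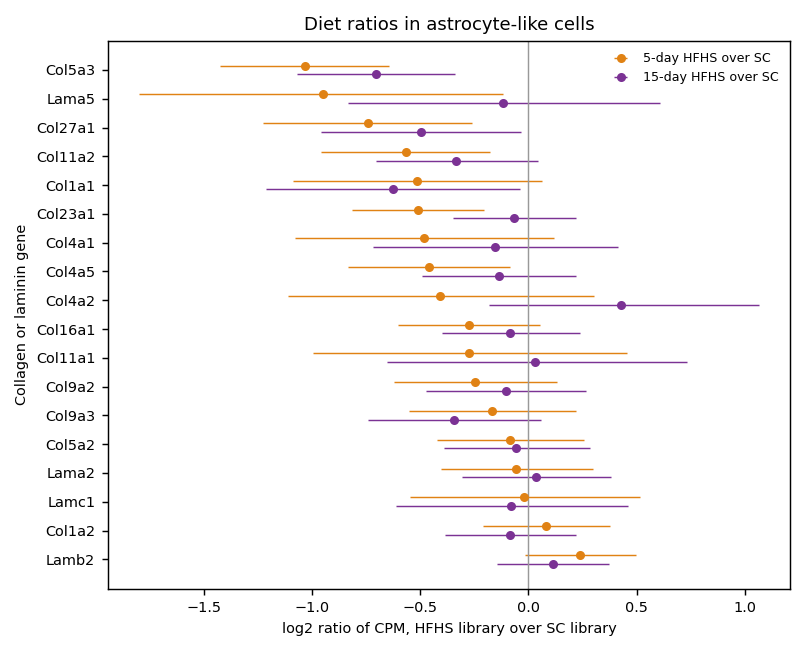
log2 ratio of CPM, HFHS library over SC library, with exact 95% counting intervals, for members with at least 50 UMIs in astrocyte-like cells. Col5a3 has the lowest ratio in both, at -1.03 and -0.71, and most 5-day points lie left of 0.

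Fibroblast-like cells were too few for a call, and their libraries differed for some genes and not for others. No median or share over all genes was taken in this class. The ratios below therefore cannot be told apart from differences that genes in general may have between these few cells. In the 60 cells of the 15-day library, several basement membrane genes were lower than in the 11 SC cells: the log2 ratio was -1.79 [-2.11 to -1.46] for Col4a1, -1.96 [-2.42 to -1.51] for Col4a2, -2.98 [-3.77 to -2.23] for Lama1, -1.24 [-1.70 to -0.77] for Lamc1 and -1.34 [-1.64 to -1.04] for Col15a1. Among fibrillar chains Col3a1 (-0.93 [-1.20 to -0.66]) and Col5a3 (-1.19 [-2.08 to -0.27]) were lower and Col5a2 had -0.82 [-1.68 to 0.10]. The type I chains were close, at 0.04 [-0.23 to 0.32] for Col1a1 and -0.27 [-0.50 to -0.04] for Col1a2, Col4a5 was close too (0.16 [-0.41 to 0.78]), Col4a4 had no UMI in SC and 22 in the 15-day library, and Col6a1 was higher, at 0.70 [0.08 to 1.39]. The 5-day library of 18 cells stood between for Col4a1 (-0.75 [-1.10 to -0.39]) and Lama1 (-0.84 [-1.51 to -0.18]). Pericyte markers in these cells summed to 3137, 6094 and 1055 CPM, with some of the markers at 0 as given above. A single cell held 40.8% of the Col4a2 UMIs of the 5-day library, for which no Col4a2 ratio is given here. The part of the pericyte markers or of single cells in these ratios was not tested. Loxl1 also differed, at 49.2, 61.6 and 437 CPM, as did Fbln2, given above.

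Among the partner genes, none of 111 pairs of gene and class passed the size rule at 5 days and 2 of 110 did at 15 days, both in endothelial-like cells. The 110 pairs came from 5 classes, in which 0.833% to 2.26% of all genes passed at 15 days, with 2.26% in endothelial-like cells. Only part of the 110 pairs were endothelial, so the share within that class was higher than 2 of 110, and it was not counted. A count of 2 is too small to say anything particular about the partner lists. Eln, the elastin gene, was lower (39.9 CPM in SC against 18.9 CPM, a log2 ratio of -1.08 with an interval from -1.64 to -0.55), and a single cell held 24.0% of its SC UMIs. Smooth muscle markers in endothelial-like cells summed to 100.001, 309 and 54.0 CPM (8 markers, Cnn1 and Actg2 at 0 in all 3 libraries), and their part in the Eln ratio was not tested. Timp2, a metalloproteinase inhibitor, was higher (20.5 CPM in SC against 39.3 CPM, a log2 ratio of 0.94 with an interval from 0.47 to 1.401).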

How the data were processed

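Droplet libraries of dissociated arcuate nucleus were deposited as matrices of raw UMI counts per gene and cell barcode; per the file headers and the submitters' processing notes they came from Cell Ranger 3.1.0, and SAMtools and Scanpy 1.4.4 with GRCm38 are also named. The gene annotation is not given in the sources used here. Barcodes under 500 genes or over 20% mitochondrial UMIs were dropped, and the highest doublet scores were removed at 0.8% per 1000 barcodes (291, 211 and 344 cells). Cells were clustered with Scanpy 1.11.5 (3000 variable genes, 40 components, 15 neighbours, Leiden resolution 1) in Python 3.11.15. Of 34 clusters 28 were named from fixed marker lists; the scoring rule that names them was chosen after the clusters were seen, and class differences from the study may come from these rebuilt names. Counts were summed by class and library. Intervals are exact Poisson for CPM, exact conditional binomial for ratios and Clopper-Pearson for shares. No p-value was computed, since each diet has 1 library. The rules were tested on simulated data. Alternatives were 15 planned and 2 added after seeing the data.

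The members and gene lists were chosen with earlier results of these data known. The text names each member led by a class, and each member or partner gene past the diet size rule. Not every partner gene led by a class is named as such. Other members were named after their values were seen, to account for all of them. A planned description of protein sequences was not run, and 1 member is not reported by name here.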

Additional observations from a re-analysis of the deposited data

How the results depend on the processing

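Of the 27 members led by a class, 17 remained in cells thinned to 1000 UMIs, where 26 members could be read, and those led by fibroblast-like cells went from 18 to 9. Leaving fibroblast-like cells out (added after seeing the data) gave 17 of 25, of which 9 were shared with the main 27. With all 13 named classes (added after seeing the data) 5 of the 27 leads were lost, those of Lama5, Col9a3, Col11a1, Col9a2 and Col18a1. Lama5 was then highest in smooth-muscle-like cells, at 3.96 times the next class, and Col9a3 in committed-precursor-like cells, at 4.95 times. With at least 1000 genes per barcode 22 members were led, 21 of them among the 27; Lamc3, Col5a1, Col5a2, Col5a3, Col6a3 and Col22a1 lost their call. No member passed the diet size rule at 5 or 15 days in thinned cells (0 in each), nor at 15 days with every cell given equal weight (0). Thinning removes UMIs, and how many members still reached the UMI minimum of the rule is not given. The thinned counts therefore do not show that a difference was lost. With 10% free RNA subtracted, 3 passed at 5 days, Col27a1, Col5a3 and Col23a1, all lower in astrocyte-like cells. The 5-day astrocyte collagen median of -0.44 became -0.61 with at most 10% mitochondrial UMIs, -0.29 with equal weights and -0.095 in thinned cells, and the 15-day median of -0.12 became -0.25 with at most 10% mitochondrial UMIs. The cause of these shifts was not tested. Scaling by TMM or median of ratios changed no count of members by over 1.5 times. No paired analysis was possible because each diet has 1 library. Depth limits fibroblast-like cells most, at 11, 18 and 60 cells.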

Other observations

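Several members were higher in cells outside the 6 classes compared. Committed oligodendrocyte-precursor-like cells, the stage after the precursor, had 693, 604 and 627 CPM of Col9a3, 61.2, 53.4 and 71.5 CPM of Col9a1, 44.4, 62.6 and 51.4 CPM of Col11a2 and 14.02, 15.2 and 18.03 CPM of Col20a1. Ependymal-like cells, which line the ventricle with cilia, had 120.4, 142 and 172 CPM of Col6a5, 76.9, 84.2 and 83.7 CPM of Col8a2, 23.2, 20.5 and 25.9 CPM of Lama3 and 185, 187 and 172 CPM of Lamb2. Col6a5 and Lama3 were thus low in the 6 classes and readable in a neighbouring one. Microglia-like cells had 127, 138 and 142 CPM of Col27a1, above each of the 6 classes by mean. The 59 smooth-muscle-like cells had 177, 304 and 168 CPM of Lama5, 347, 385 and 329 CPM of Lamb2 and 105, 101 and 43.5 CPM of Col14a1. In all, 11 members had their highest mean outside the 6 classes, with at least 10 CPM and 20 UMIs there.

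An unnamed cluster of 25, 33 and 83 cells with low UMI counts, led by Plvap and Igfbp3, had 34.1, 113 and 204 CPM of Col13a1, 68.2, 0 and 297 CPM of Col15a1 and 580.0, 794 and 1151 CPM of Col4a1. Its cells had a median of 1023 UMIs, so these levels rest on few UMIs, fewest in SC, and are not compared between libraries.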
